A study of Mus musculus with 4 samples.

Results

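Lipogenic and adipose tissue genes were followed in RNA of whole mouse heart. They were chosen by name as Acly, Fasn and Scd1 (fatty acid synthesis), Cfd, Adipoq, Lipe and Fabp4 (adipocytes) and Ucp1 (brown fat), and all probe sets annotated with one of these symbols were taken. Of these 8 genes, 7 had a probe set, 10 probe sets in all of 12488 on the array, and 9 of the 10 passed the filter on dim probe sets. No probe set carried the symbol Cfd in the annotation used, so Cfd was not analysed here. RNA came from 2 pools of wild-type hearts and 2 pools of heterozygous hearts, each pool made of 5 hearts, and every pool was measured on 1 array. All mice were adult males, 8 to 16 weeks old, on a 129/Black Swiss background. The gene in which the mice were heterozygous is not reported here. The pools carry the numbers 1 and 2 within each genotype, and nothing in the labels says that they came from separate groups of animals, so p-values measure only the spread between these 4 samples.

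Acly makes cytosolic acetyl-CoA from citrate, Fasn builds palmitate from it, and Scd1 puts the first double bond into saturated fatty acids. Adipocytes store the product as triglyceride, release it through lipases such as the hormone-sensitive lipase Lipe, and secrete adiponectin (Adipoq). Brown adipocytes carry Ucp1, which uncouples respiration from ATP synthesis to make heat. Heart muscle mainly burns fatty acids, and fat lies on its surface and around the great vessels.

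Values are linear signal intensities as deposited. Log2 changes are heterozygous minus wild type, with limma's standard error (SE) and a p-value adjusted by the Benjamini-Hochberg method over 7454 tested probe sets, and a probe set was called at an adjusted p under 0.05. Of these 7454, 2796 (37.5%) were called, 1320 higher (17.7%) and 1476 lower (19.8%). Calls fell to 1630 without heterozygous pool 1 and to 1619 without heterozygous pool 2. Shifting arrays to a common median moved the middle log2 change over the 7454 from 0.01 to 0.19 and the share of higher calls from 47.2% to 63.5%. Centring arrays on cardiomyocyte genes moved it to -0.67 and the share to 3.6%. Defining markers of heart muscle were present: the 12 listed cardiomyocyte genes with a probe set, Myh6 and Tnnt2 among them, were all tested, and their summed signal was 595334 and 535930 in wild type against 838853 and 877166 in heterozygous pools. Lymphocyte and thymus markers were also present, with a summed signal over 19 genes of 158053 and 158579 in wild type against 20642 and 20344 in heterozygous pools. In RNA of whole tissue, fewer cells of a type and less RNA per cell cannot be told apart.

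Acly and Fasn were both lower in the heterozygous hearts, while Scd1, Adipoq, Lipe, Fabp4 and Ucp1 were not called in either direction. Of the 9 tested member probe sets, 2 were called lower and 0 higher (limma, adjusted p under 0.05). Over all tested probe sets 19.8% were called lower, 17.7% higher and 37.5% in either direction. The share of members called lower was thus close to that of all tested probe sets. The members' median log2 change was -0.25, beside 0.01 over all tested probe sets. In 7 of the 9 both pools of one genotype lay above both of the other, beside 69.6% of all tested probe sets: the heterozygous pools were the higher in 3 (34.7% of all tested) and the lower in 4 (35% of all tested). Lipogenic, adipocyte and brown fat genes are described apart.

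**Figure D1:**
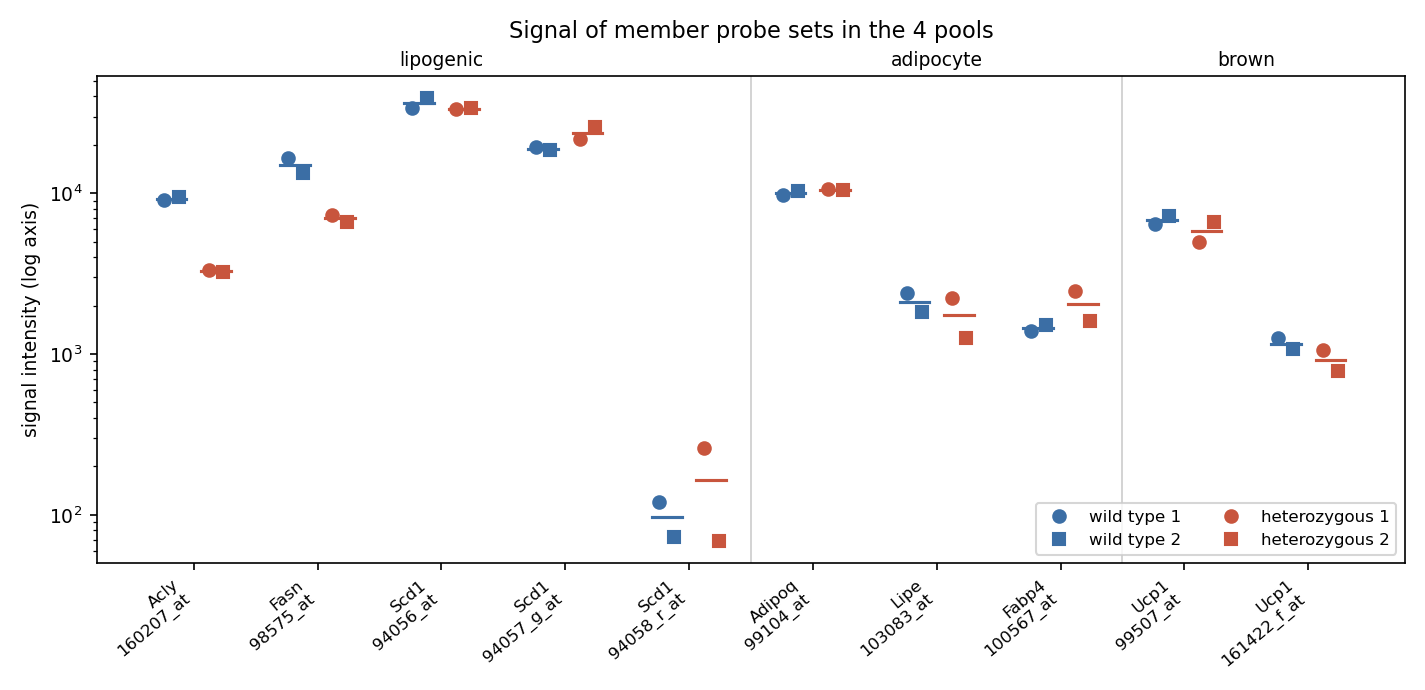
Signal intensity (log axis) of the 10 member probe sets in the 4 pools, with circles for pool 1, squares for pool 2 and short lines for genotype means. Acly and Fasn show 2 heterozygous points well below the wild-type points, while those of Adipoq lie close together, between 9747.2 and 10590.3.

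Among the lipogenic genes, Acly had a signal of 9056.3 and 9415.9 in the wild-type pools and of 3312.0 and 3222.7 in the heterozygous pools. Both heterozygous pools were far below both wild-type pools, and pools of 1 genotype differed little. The signal fell 2.83-fold, from 9236 ± 254 to 3267 ± 63.1 (SD, n = 2), with a log2 change of -1.50 (SE 0.14, 95% interval -1.81 to -1.19, limma adjusted p = 8.8e-05). Fasn had a signal of 16668.2 and 13451.5 in the wild-type pools and of 7354.1 and 6645.6 in the heterozygous pools. Here too the groups were apart, although the wild-type pools differed more from each other than for Acly. The Fasn signal fell 2.14-fold, from 15060 ± 2275 to 7000 ± 501 (SD, n = 2), with a log2 change of -1.10 (SE 0.15, 95% interval -1.44 to -0.75, limma adjusted p = 7.6e-04). Both calls held under all 17 alternatives tried, with log2 changes of -2.18 to -1.32 for Acly and -1.78 to -0.92 for Fasn. Over the same pools all 18 tested lymphocyte and thymus markers were called lower, beside 19.8% of all tested probe sets. The median log2 change of these markers was -2.95, and their part in the decrease of Acly and Fasn was not tested.

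The promoters of Acly and Fasn, which were lower together, are shown beside that of Adipoq, which was not called, as 250 bases before to 50 after the gene start (RefSeq, GRCm38.p6). A promoter was found in the table for 6 of the 8 genes, not for Scd1 and Fabp4. Acly lies at chr11:100527951-100528250 on the minus strand, Fasn at chr11:120824498-120824797 on the minus strand and Adipoq at chr16:23146286-23146585 on the plus strand. Capitals mark matches, on either strand, to the letters CCAAT or GGGCGG.
Acly: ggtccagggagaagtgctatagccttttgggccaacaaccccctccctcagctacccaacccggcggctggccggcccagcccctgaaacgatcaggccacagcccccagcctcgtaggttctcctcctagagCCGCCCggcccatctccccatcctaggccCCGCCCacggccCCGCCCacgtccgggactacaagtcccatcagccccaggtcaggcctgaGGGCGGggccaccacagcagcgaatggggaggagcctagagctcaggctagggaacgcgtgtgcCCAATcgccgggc
Fasn: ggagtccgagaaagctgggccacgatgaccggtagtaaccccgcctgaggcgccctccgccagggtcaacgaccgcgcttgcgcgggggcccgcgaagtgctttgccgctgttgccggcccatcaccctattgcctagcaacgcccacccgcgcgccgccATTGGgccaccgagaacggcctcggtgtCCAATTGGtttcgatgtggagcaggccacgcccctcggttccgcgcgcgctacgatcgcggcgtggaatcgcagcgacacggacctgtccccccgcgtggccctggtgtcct
Adipoq: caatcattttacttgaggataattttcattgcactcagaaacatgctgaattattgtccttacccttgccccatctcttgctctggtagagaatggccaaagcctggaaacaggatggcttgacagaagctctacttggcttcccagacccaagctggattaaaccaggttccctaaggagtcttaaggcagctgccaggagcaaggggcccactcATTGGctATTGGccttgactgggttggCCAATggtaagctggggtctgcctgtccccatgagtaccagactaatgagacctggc
Acly held 4 matches to GGGCGG, the Sp1 box, first bases at -117, -88, -76 and -27 from the gene start, and 1 match to CCAAT at 38. Fasn held 3 matches to CCAAT, at -90, -62 and -59, the last pair overlapping. Adipoq held 3 matches to CCAAT, at -34, -27 and -7. Of 32851 promoters of this length, 37.4% held CCAAT and 35.7% held GGGCGG on either strand. None of the 3 windows held TATAAA (13.6% of promoters), CACGTG (7.15%), the sterol element letters TCACNCCAC (1.24%), TTGCNNAA of the C/EBP factors (10.8%) or a direct repeat of AGGTCA with 1 base between (0.0396%). Of the letters searched, the promoters of Acly and Fasn shared only CCAAT, which Adipoq held too. It lay after the gene start in Acly and before it in Fasn. A match is a run of letters and not a site shown to be used.

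Scd1, the desaturase that follows Fasn, was represented by 3 probe sets. The brightest had a signal of 34138.9 and 39195.3 in the wild-type pools and of 33520.6 and 33816.0 in the heterozygous pools. Its heterozygous pools lay just below the lower wild-type pool, by less than the wild-type pools differed. The log2 change was -0.12 (SE 0.13, 95% interval -0.42 to 0.18, limma adjusted p = 0.513), so a decrease as large as that of Acly or Fasn was outside the interval. The second, with the suffix _g, had 19479.3 and 18484.5 against 21667.3 and 25802.5, which is the opposite direction, with a log2 change of 0.32 (SE 0.14, 95% interval 0.0023 to 0.63, limma adjusted p = 0.104). The third, with the suffix _r, was dim and not tested, at 120.9 and 73.1 against 258.8 and 69.0, and its pools overlapped. These suffixes mark probe sets designed under looser rules, the first of them able to share probes with other transcripts. Scaling moved the Scd1 values across the threshold: with a common median the second was called higher (0.50) and the brightest was at 0.060, and under cyclic loess the brightest was called lower (-0.44). With arrays centred on cardiomyocyte genes both were called lower (-0.80 for the brightest and -0.36 for the second).

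Scd2, a close paralog of Scd1 best known from brain, was called lower. Its brighter probe set had a signal of 14187.4 and 12728.0 in the wild-type pools and of 2924.8 and 3848.1 in the heterozygous pools, a 4.01-fold decrease (SE 0.17 on the log2 scale, limma adjusted p = 5.4e-05). The other probe set of Scd2, whose suffix _f marks probes shared within a sequence family, had a log2 change of -2.01 (SE 0.23, limma adjusted p = 2.9e-04). Probes of near-identical paralogs can detect each other's transcripts, and how far they did so here was not tested. The brighter probe set kept its call under all 17 alternatives, with log2 changes of -2.68 to -1.80. All 18 tested lymphocyte and thymus markers were called lower in the same pools, beside 19.8% of all tested probe sets. Their part in the decrease of Scd2 was not tested.

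**Figure D2:**
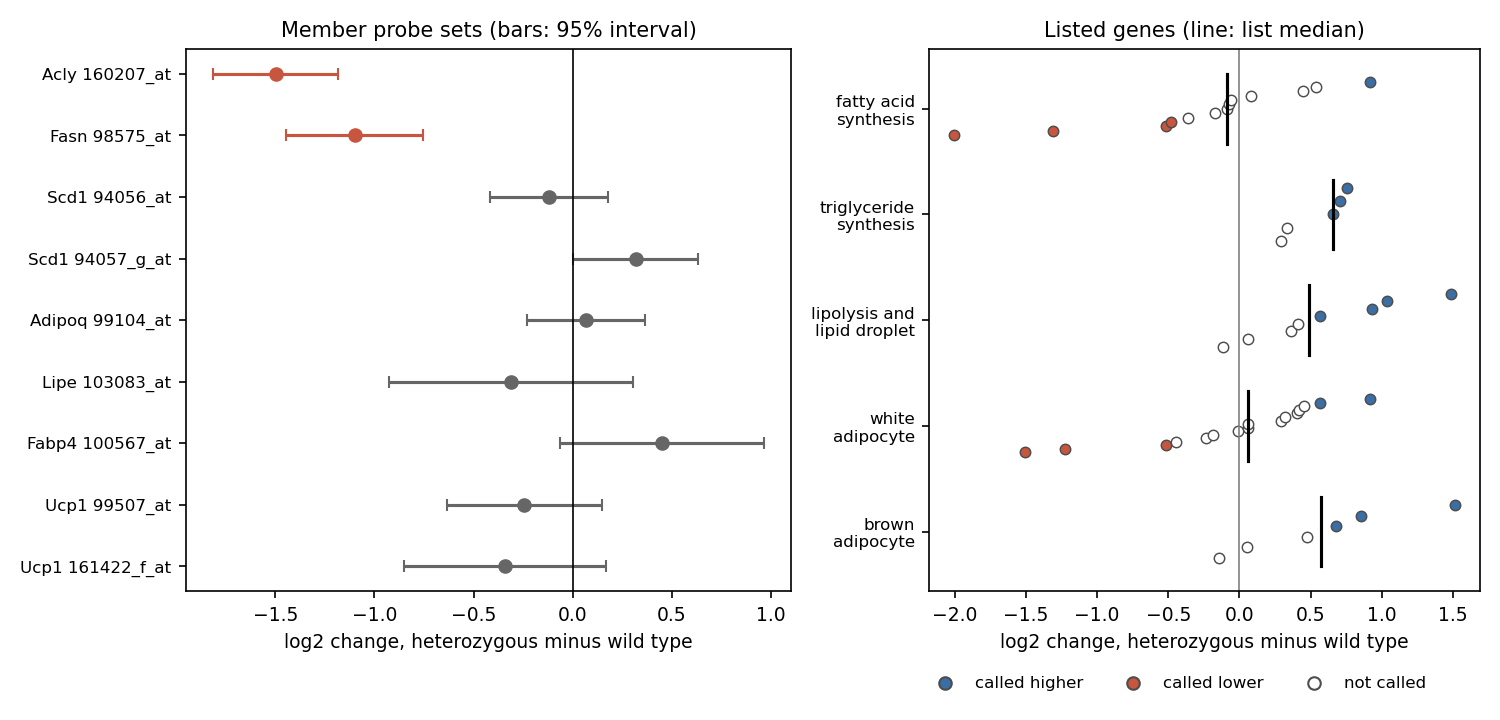
Log2 change, heterozygous minus wild type, of the 9 tested member probe sets with 95% intervals (left) and of listed genes at their brightest probe set (right), coloured by call with a line at each list's median. The intervals of Acly and Fasn end at -1.19 and -0.75, that of the second Scd1 probe set starts at 0.0023, and the others include 0, and the triglyceride synthesis, lipolysis and brown adipocyte lists hold no gene called lower.

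The wider list of fatty acid synthesis and its control held 24 genes beside the members, of which 14 had a probe set and 13 were tested. In it 4 genes were called lower, 1 higher and 8 in neither direction, so 38.5% were called beside 37.5% of all tested probe sets, and the median log2 change was -0.09. Beside Scd2, the genes called lower were Elovl6, which lengthens the product of Fasn (log2 change -1.31 and -1.50 on its 2 probe sets), Thrsp, a lipogenic nuclear protein (-0.52), and Slc25a1, the carrier that brings citrate to Acly (-0.48 and -1.02 on its 2 probe sets). Mid1ip1, an activator of acetyl-CoA carboxylase, was called higher on 1 probe set (0.92) and not on the dimmer one (0.18, limma adjusted p = 0.574), and the call ended with arrays centred on cardiomyocyte genes (0.24). Srebf1, the transcription factor that drives Acly, Fasn and Scd1 in liver, had a signal of 4423.0 and 4435.0 against 3529.6 and 4377.6, with a log2 change of -0.17 (SE 0.16, limma adjusted p = 0.435). Leaving out any 1 of the 4 pools ended the call of the brighter Slc25a1 probe set (-0.58 to -0.37), and the Thrsp call did not survive the loss of wild-type pool 1 (-0.34) or of either heterozygous pool (-0.63 and -0.41 without pool 1 and pool 2). In all, 9 of 17 alternatives ended the call of this Slc25a1 probe set and 6 of 17 that of Thrsp. Among them were a common median and no filter on dim probe sets. Without that filter the brighter Elovl6 probe set did not pass either (limma adjusted p = 0.0747). The dimmer Slc25a1 probe set, with the suffix _i, was called too (limma adjusted p = 0.0035) and was not followed under the alternatives. The part of lymphocyte and thymus cells in the decreases of Elovl6, Thrsp and Slc25a1 was not tested.

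Of the genes that join fatty acids into triglyceride, 3 of 5 tested were called higher and 0 lower, beside 17.7% of all tested probe sets called higher (median log2 change 0.66, beside 0.01): Lpin1, a phosphatidate phosphatase (0.76), Gpam, the mitochondrial glycerol phosphate acyltransferase (0.71), and Agpat1, which adds the second fatty acid (0.66). Gpd1 and Dgat1 were not called (limma adjusted p = 0.176 and 0.171). Gpam had a signal of 5907.1 and 5038.2 in the wild-type pools and of 8625.3 and 9178.9 in the heterozygous pools. The call of Gpam ended without heterozygous pool 2 (0.66) and without the dim filter (limma adjusted p = 0.0575), and that of Agpat1 ended without any 1 of the 4 pools (0.54 to 0.77) and without that filter (limma adjusted p = 0.0772). With arrays centred on cardiomyocyte genes none of the 3 was called (0.08 for Lpin1, 0.03 for Gpam and -0.02 for Agpat1). Cardiomyocyte genes moved the same way in these pools, with 10 of 12 called higher and a median log2 change of 0.63, and their part in the triglyceride genes was not tested.

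Among the adipocyte genes, Adipoq had a signal of 9747.2 and 10355.9 in the wild-type pools and of 10590.3 and 10454.2 in the heterozygous pools. The 4 values of this gene lay close together, with the heterozygous pools just above the wild-type pools. The mean was 10052 ± 430 in wild type and 10522 ± 96.2 in heterozygous hearts (SD, n = 2), with a log2 change of 0.07 (SE 0.13, 95% interval -0.23 to 0.36, limma adjusted p = 0.726). Its sign turned under quantile normalization (-0.07) and cyclic loess (-0.12), and with arrays centred on cardiomyocyte genes it was called lower (-0.61).

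Lipe had a signal of 2394.1 and 1816.2 in the wild-type pools and of 2240.5 and 1261.8 in the heterozygous pools. The groups overlapped, and in either genotype pool 1 was above pool 2. The log2 change was -0.31 (SE 0.27, 95% interval -0.93 to 0.31, limma adjusted p = 0.408), and it was 0.10 without heterozygous pool 2. The lower end of its interval lay above the log2 changes of Acly and Fasn. Lipe was called lower with arrays centred on cardiomyocyte genes (-0.99).

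Fabp4, the fatty acid binding protein of adipocytes, is also made by capillary endothelium and macrophages. Its signal was 1395.4 and 1520.1 in wild type against 2481.9 and 1594.2 in heterozygous pools. Heterozygous pool 1 stood above the other 3 pools, and heterozygous pool 2 was only just above wild-type pool 2. The log2 change was 0.45 (SE 0.23, 95% interval -0.06 to 0.96, limma adjusted p = 0.152). It passed as higher without heterozygous pool 2 (0.77, limma adjusted p = 0.0472) and with a common median (0.63, limma adjusted p = 0.0467), was at 0.13 without heterozygous pool 1 (limma adjusted p = 0.664), and turned its sign with arrays centred on cardiomyocyte genes (-0.23). In the same pools 9 of 12 tested endothelial markers were called higher and 0 lower, with a median log2 change of 0.88.  Over all tested probe sets 17.7% were called higher and 19.8% lower. Of 9 tested macrophage markers 0 were called higher and 1 lower, with a median of -0.20. The part of endothelial cells in the Fabp4 signal was not tested. Fabp3, the heart form of the family, was called higher (log2 change 0.57, SE 0.17, limma adjusted p = 0.0279). The Fabp3 call was lost when wild-type pool 1 (0.43) or either heterozygous pool (0.36 and 0.77 without pool 1 and pool 2) was left out, under quantile normalization (0.40) and under cyclic loess (0.22), and under 8 of 17 alternatives in all. Fabp5, found in endothelium and macrophages as well as fat, had a log2 change of -0.41 (SE 0.20, limma adjusted p = 0.140).

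Other markers of white adipocytes moved in both directions. Of 16 tested, 2 were called higher, 3 lower and 11 in neither direction, which is 31.2% called beside 37.5% of all tested probe sets, with a median log2 change of 0.06. Their summed signal over 19 genes was 93891 and 89281 in wild type against 110602 and 111128 in heterozygous pools. Lpl, which heart muscle makes as well, held 46649.5 and 41462.7 of this in wild type against 65124.2 and 65287.7 in heterozygous pools. Lpl, called higher, is also counted in the lipolysis list, and Thrsp, called lower, in the fatty acid synthesis list. Gpd1 and Cidec, not called, are shared with other lists as well. Lep, the hormone leptin, had a signal of 1882.3 and 2846.0 against 3082.6 and 3117.3, with a log2 change of 0.42 (SE 0.21, limma adjusted p = 0.143). It passed as higher without wild-type pool 2 (0.72) and with a common median (0.60), and was at 0.12 without wild-type pool 1. Retn, the adipocyte hormone resistin, moved the other way, from 1364.8 and 1461.9 to 550.2 and 662.1, and fell 2.34-fold (log2 change -1.23, SE 0.21, limma adjusted p = 0.00217). Retn kept its call under all 17 alternatives (-1.90 to -1.05). Pparg, the master regulator of fat cell formation, had a log2 change of 0.06 (SE 0.26, limma adjusted p = 0.879). Cebpd, which acts early in that process and in many other tissues, was called higher (0.92; the call ended with arrays centred on cardiomyocyte genes, at 0.24), and Orm1, an acute phase protein gene, was called lower (-1.51; the call ended without wild-type pool 1, at -1.33, and without the dim filter, limma adjusted p = 0.0864). The adipocyte hormone genes Adipoq, Lep and Retn therefore had log2 changes of 0.07, 0.42 and -1.23 in the same 4 pools. The part of lymphocyte and thymus cells in the decreases of Retn and Orm1 was not tested.

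Plin4, Pnpla2, Mgll and Lpl were called higher among the genes of lipolysis and the lipid droplet beside Lipe. These were 4 of 8 tested, with 0 called lower, beside 17.7% of all tested probe sets called higher, and the median log2 change was 0.49, beside 0.01. The other 4 had log2 changes of -0.12 to 0.41 and were not called. In the same pools 10 of 12 cardiomyocyte genes were called higher, and their part in these differences was not tested. Plin4, a lipid droplet coat protein of fat and muscle, had a signal of 1081.5 and 980.9 in the wild-type pools and of 2763.2 and 2998.0 in the heterozygous pools, a 2.79-fold rise (log2 change 1.48, SE 0.17, limma adjusted p = 2.9e-04). Pnpla2, the lipase that acts before Lipe on triglyceride, rose 2.05-fold (log2 change 1.03), Mgll, which acts after it, rose 1.91-fold (0.93), and Lpl, which frees fatty acids from lipoproteins in capillaries, rose 1.48-fold on its brighter probe set (0.57) and had a log2 change of 0.98 on the other. The brighter Lpl probe set lost its call when either heterozygous pool was left out (0.57 both times), under cyclic loess (0.20) and without the dim filter (limma adjusted p = 0.101), which also ended the call of Pnpla2 (limma adjusted p = 0.0613). With arrays centred on cardiomyocyte genes Plin4 was still called higher (0.81), Pnpla2 (0.36) and Mgll (0.25) were not called, and Lpl was at -0.11.

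The brown fat gene Ucp1 was measured by 2 probe sets. The brighter had a signal of 6435.5 and 7263.1 in the wild-type pools and of 4988.7 and 6665.5 in the heterozygous pools. The groups overlapped, since heterozygous pool 2 lay between the wild-type pools. The log2 change was -0.25 (SE 0.17, 95% interval -0.64 to 0.15, limma adjusted p = 0.296), and it was -0.037 without heterozygous pool 1 and -0.45 without heterozygous pool 2. The dimmer, whose suffix _f marks probes shared within a sequence family, had 1256.9 and 1068.0 against 1063.1 and 785.4, with a log2 change of -0.34 (SE 0.22, 95% interval -0.85 to 0.17, limma adjusted p = 0.263), and -0.56 and -0.12 with the same pools left out. Both probe sets were called lower with arrays centred on cardiomyocyte genes (-0.92 and -1.02).

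Cidea, a lipid droplet protein and a marker of brown fat, had a signal of 11642.7 and 9811.8 in the wild-type pools and of 11191.2 and 8368.2 in the heterozygous pools, with a log2 change of -0.14 (SE 0.17, limma adjusted p = 0.555). Its pools overlapped, like those of the brighter Ucp1 probe set. Dio2, which makes active thyroid hormone in brown fat, had a log2 change of 0.05 (SE 0.28, limma adjusted p = 0.902), and Ppargc1a was dim and not tested (207.3 and 322.1 against 387.2 and 378.7). Of 6 tested brown adipocyte markers 3 were called higher and 0 lower, beside 17.7% of all tested probe sets called higher, with a median log2 change of 0.58, beside 0.01. These were Ucp3 (1.51), Cox7a1 (0.86) and Cox8b (0.68), 3 genes that heart or skeletal muscle also make. This Cox8b value came from a probe set with the suffix _r, and the other Cox8b probe set had a log2 change of 0.82. The Cox8b call ended without heterozygous pool 2 (0.62) and without the dim filter (limma adjusted p = 0.0600), and with arrays centred on cardiomyocyte genes Cox7a1 (0.18) and Cox8b (0.00) were not called, while Ucp3 still was (0.84).

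Ratios between genes within an array do not depend on how whole arrays are scaled by a common factor. The log2 ratio of Acly to Adipoq was -0.11 and -0.14 in wild type against -1.68 and -1.70 in heterozygous pools, a change of -1.57. That of Fasn to Adipoq was 0.77 and 0.38 against -0.53 and -0.65, a change of -1.17. In both, the gap between genotypes was larger than that between pools of 1 genotype. Against Scd1 the changes were -1.38 for Acly and -0.98 for Fasn, and Scd2 against Scd1 changed by -1.88, from -1.27 and -1.62 to -3.52 and -3.14. The changes against Adipoq were smaller for Scd1 (-0.19), Ucp1 (-0.31), Lipe (-0.38) and Fabp4 (0.38). Acly against Fasn changed by -0.40, from -0.88 and -0.51 to -1.15 and -1.04. With 2 pools a genotype, the smallest p of an exact two-sided permutation test is 0.333, and the test gave 0.333 for all of these 10 ratios except Lipe to Adipoq (exact p = 0.667). After Benjamini-Hochberg adjustment over the 10 ratios the values were 0.370 and 0.667. The ratios show unequal change between genes and not which of them changed.

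**Figure D3:**
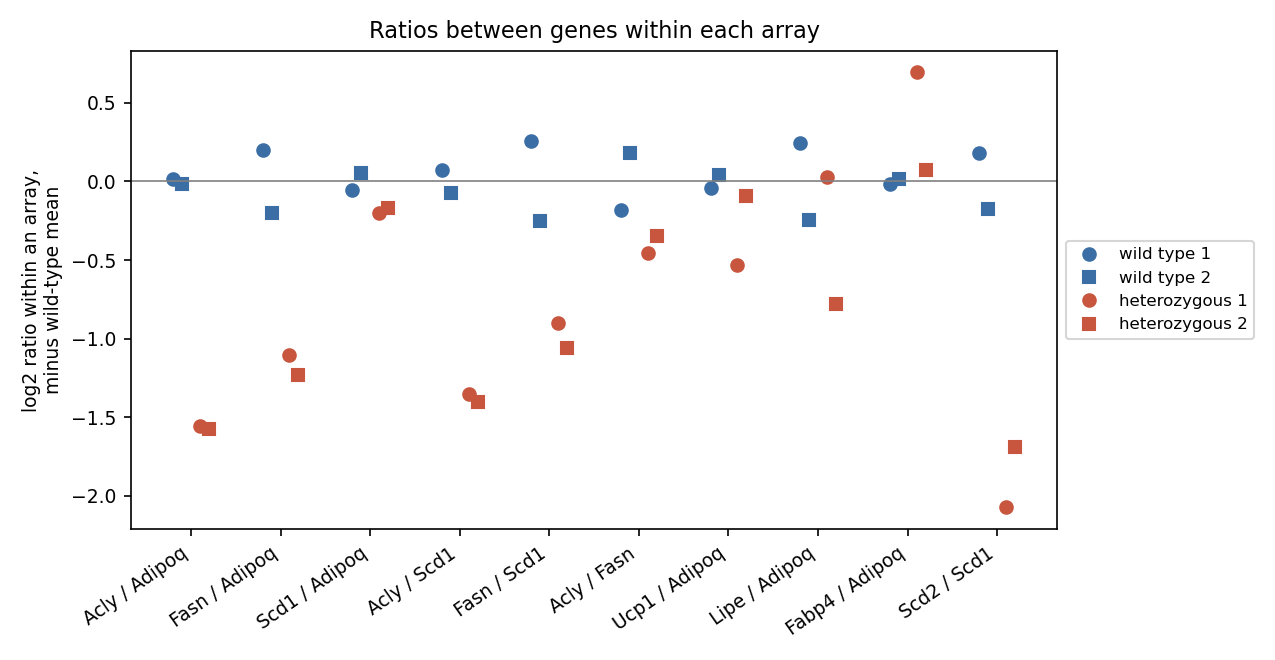
Log2 ratio of 10 gene pairs within each array (brightest tested probe sets), with the wild-type mean of each pair set to 0, blue for wild type and red for heterozygous pools. The heterozygous points of Acly and Fasn against Adipoq or Scd1, and of Scd2 against Scd1, lie furthest below 0, with changes of -0.98 to -1.88.

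The genes most like the brightest member of each group were found by the root mean square difference of log2 signals over the 4 pools, centred on each probe set's own mean. For Scd1 they were Nup62, Psmd6 and Dram2, at 0.0103, 0.0147 and 0.0150 among 6736 probe sets. For Adipoq they were Rhoa, Itih5 and Atp7a, at 0.0129 to 0.0155. For Ucp1 they were Acp1, Cdh1 and Kat7, at 0.0181 to 0.0297. Over 4 arrays such likeness is a description only.

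**Figure D4:**
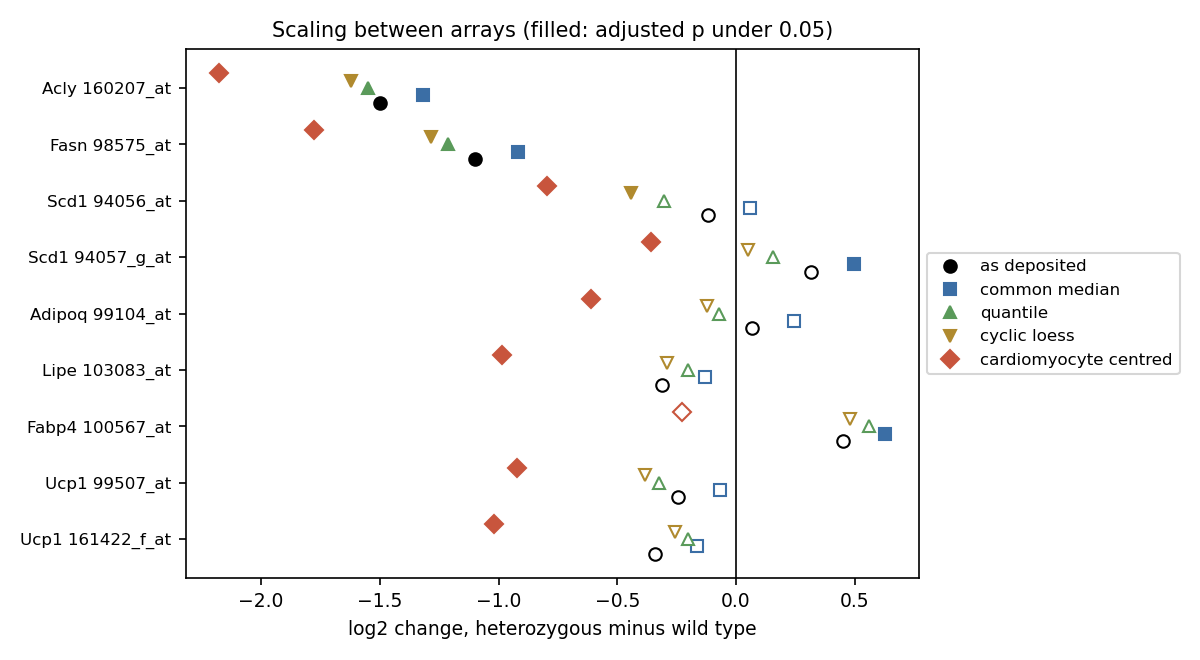
Log2 change, heterozygous minus wild type, of the 9 tested member probe sets under 5 scalings between arrays, with filled symbols for an adjusted p under 0.05 (limma). Acly and Fasn are filled and left of 0 under every scaling drawn, and centring on cardiomyocyte genes places all 9 probe sets left of 0, with 8 of them called.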

How the data were processed

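Total RNA of whole heart, isolated with Trizol and a phenol-chloroform step, was measured on 1-colour oligonucleotide arrays in 2 wild-type and 2 heterozygous pools. The authors deposited linear intensities, 1 value for each probe set on each array. The software that produced the intensities was not given in the sources used here. Trimmed means (2% off each end) ran from 1486.94 to 1501.19, a ratio of 1.01 and under the limit of 1.05, so no further scaling was applied. Without control probe sets they ran from 1486.5 to 1488.07. Medians over all values present were 569.6 and 608.55 in wild-type pools against 508.85 and 531.15 in heterozygous pools. The 66 control probe sets, empty in heterozygous pool 2, were removed. Precision is limited by the number of arrays.

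Signals under the 10th percentile (36.25) were raised to it (4 values of tested probe sets), log2 was taken, and the 40% of 12422 probe sets with the lowest mean log2 signal were not tested. limma 3.58.1 in R 4.3.3 (lmFit, eBayes with a mean-variance trend) was fitted with genotype as the only term, and p-values are two-sided. The fit was tested on simulated data. Only probe sets with 1 gene symbol in the platform annotation were named (10833; 396 had several, 1259 none). Lists used the brightest probe set of each gene and were described by counts and medians, with no set test.

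The members, lists and alternatives were chosen with earlier results of these data known. Named genes are all members, up to 5 called genes of each list, marker genes wanted as a check, and the 3 genes most like the brightest member of each group. Outside these rules, Srebf1, Fabp5, Gpd1, Dgat1, Fdft1, Mvk, Nsdhl and Hmgcs1 were named after their values were seen. Alternatives covered scaling, floor, dim filter, moderation, a block for the pool number, leaving out each pool, and the threshold. Centring on cardiomyocyte genes and ranking dim probe sets by linear mean were added after the data were seen. Plots were drawn with matplotlib 3.10.9.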

Additional observations from a re-analysis of the deposited data

How the results depend on the processing

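Of 153 values of member probe sets under alternatives, 138 kept direction and side of the threshold, none of the calls of Acly and Fasn ended, 10 values not called before passed, and 7 changed sign (2 of them passing as well): the brightest Scd1 probe set with a common median (0.060), Adipoq under quantile normalization (-0.070) and cyclic loess (-0.12), Lipe without heterozygous pool 2 (-0.72 to 0.10 over pools left out), and Fabp4 (-0.23), the second Scd1 probe set (-0.36) and Adipoq (-0.61) with arrays centred on cardiomyocyte genes. Of 486 values of other named genes, 60 calls ended (3 of them with a changed sign), 5 values passed and 11 changed sign: with a common median Cidea (0.036) and Srebf1 (0.0071), with 1 pool left out Pparg (-0.020 to 0.14), Cidea (-0.35 to 0.066) and Dio2 (-0.092 to 0.19), and with cardiomyocyte centring Lpl (-0.11), Fabp3 (-0.11), Lep (-0.26), Agpat1 (-0.019), Pparg (-0.62) and Dio2 (-0.63). With that centring, which lowers every log2 change by a common amount, 2 of the 13 named genes called higher were still called higher and all 10 called lower were still lower.

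Of the 9 member probe sets, 4 were called with a common median (2 higher) and 8 with cardiomyocyte centring (8 lower). Over the alternatives that leave out 1 pool, 0 to 1 were called higher and 2 to 3 in either direction. Over all tested probe sets, calls numbered 1206 (482 higher, 724 lower) without the dim filter, 1631 (695 higher, 936 lower) at a threshold of 0.01, and 148 higher and 3962 lower with cardiomyocyte centring. Leaving out 1 pool gave 1619 to 2307 calls, 610 to 1142 of them higher and 1007 to 1165 lower. Ranking dim probe sets by linear mean gave 2856 calls of 7453. With the replicate block, calls numbered 3000 and the same 2 members were called; pool 1 minus pool 2 correlated at 0.16 between genotypes over probe sets, with only 2 pairs, so the pools share a number and are not shown to be paired. Without the dim filter, where 12422 probe sets were tested, 12 of the 23 calls among these other named genes ended. With only the lowest 20% left out, 2799 of 9938 probe sets were called. Without the filter the SE of Acly was 0.051, beside 0.14 in the main fit, and its limma adjusted p was 0.025, beside 8.8e-05. With 1 pool left out, the lone pool of its genotype is assumed to vary like the other genotype's. Some fits held fewer arrays or other numbers of probe sets, and why calls ended or moved was not tested. With 2 pools a genotype, small changes could go uncalled. An interval that excluded 0 did not assure a call, as for the second Scd1 probe set (0.0023 to 0.63, limma adjusted p = 0.104).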

Other observations

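Cholesterol synthesis, which like fatty acid synthesis starts from the acetyl-CoA that Acly makes, was lower in the heterozygous hearts for some of its enzymes. Of 8 tested genes 4 were called lower and 0 higher (median log2 change -0.70, beside 0.01 over all tested probe sets, of which 19.8% were called lower). Fdps, which makes farnesyl diphosphate, had a signal of 6602.7 and 4889.1 in the wild-type pools and of 1855.4 and 1774.7 in the heterozygous pools. It fell 3.13-fold (log2 change -1.65, SE 0.18, limma adjusted p = 2.2e-04), with a log2 change of -1.07 on the second tested Fdps probe set (suffix _f). Idi1, which acts just before Fdps, fell 2.79-fold (log2 change -1.48), and Sqle, the squalene epoxidase, fell 2.61-fold (-1.38). Sc5d, near the end of the pathway, differed between the wild-type pools (638.5 and 1252.8, against 458.0 and 473.2). Its log2 change of -0.94 was called on the brighter probe set (suffix _i) and not on the other (suffix _f, -0.73). The Sc5d call was lost when wild-type pool 2 (-0.46) or either heterozygous pool (-0.92 and -0.97 without pool 1 and pool 2) was left out, and in all it was lost under 9 of 16 alternatives, among them the common median, quantile and cyclic loess scalings (limma adjusted p = 0.0606, 0.0833 and 0.0637). The Sqle call ended without the dim filter (limma adjusted p = 0.0563). The 4 tested genes not called went both ways. Fdft1 and Mvk had log2 changes of 0.30 and 0.22 (limma adjusted p = 0.198 and 0.486). Nsdhl and Hmgcs1 had log2 changes of -0.45 and -0.35 (limma adjusted p = 0.12 and 0.19). Lymphocyte and thymus markers, with a median log2 change of -2.95, were lower in the same pools, and their part in these decreases was not tested.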
